A study of Mus musculus with 2 samples.

Results

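Mouse chromosome 12 was described gene by gene, in map order, in a colorectal cancer line and in its lung-recovered derivative. The members are all genes that the gene table of assembly GRCm38.p6 places on chromosome 12 and that have a probe set with 1 gene symbol. Each gene was represented by its brightest probe set by the mean of the 2 arrays, and kept where that probe set was above the 40th percentile of its array (4.69 log2 parental, 4.59 log2 lung-recovered, called the floor) on at least 1 array. Of 622 such genes on the chromosome, 452 were kept, out of 13332 measured genes of 18193 in all, and the other 170, at or under the floor in both lines, were left out. Just inside the floor were Asb2 (4.72 parental, 4.57 lung-recovered), Ntsr2 (4.73 and 4.61) and Fkbp1b (4.15 and 4.64), and just outside were Dhrs7 (4.69 and 4.54), 1700001K19Rik (4.41 and 4.59) and Lamb1 (3.37 and 4.59). The chromosome was chosen by the ratios of its genes on these same arrays, so its shift is given as a description and not as a test.

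Parental CMT-93, a line from a mouse rectal carcinoma, was compared with CMT-93-PM1, grown in primary culture from lung tumours that formed 8 weeks after CMT-93 cells entered the tail veins of C57BL/6 female mice 6 weeks old. Each line was profiled on 1 Affymetrix array, with labelled cRNA made from 6 µg of total RNA. Whether host cells remained in the cultured tumour tissue is not given in the labels. With 1 array per line no difference has a replicate error, no test between the lines exists and no p-value is given, and effects of culture, labelling or hybridization and effects of the line cannot be told apart. The median signals of all probe sets were 5.36 and 5.26 log2. Of 12 markers of colorectal epithelium, 8 were above the floor on each array, among them Epcam, Cdh1, Krt8, Krt18 and Krt19, while Krt20, Vil1, Cdx1 and Lgals4 were at the floor on both and Cdx2 read 5.24 and 5.08. Markers of fibroblasts were above the floor for 2 of 6 genes on each array, Col1a2 (5.65 and 5.34) and Dcn (5.30 and 5.30), with Col1a1, Col3a1, Pdgfra and Lum at the floor. Of the endothelial markers 2 of 5 were above it on each array, with Pecam1 and Emcn at the floor, but Cdh5 read 4.21 and 9.30 and Tek 8.57 and 3.43. Leukocyte markers were above it for 3 of 5 genes on each array, Cd3e (6.01 and 6.00), Lyz2 (5.53 and 5.53) and Cd68 (5.23 and 7.05), with Ptprc and Itgam at the floor. Of 6 lung epithelium markers 3 were above it in the parental line and 2 in the lung-recovered one. Sftpb (6.70 and 6.32) and Ager (6.15 and 5.45) were above the floor on both arrays and Sftpc (5.04 and 4.57) on the parental array alone. Sftpa1, Scgb1a1 and Nkx2-1 were at the floor on both. The part of such cells in the ratios below was not tested.

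Mouse chromosome 12 carries genes of many unrelated roles. It also holds several well known clusters, the serpin A cluster of secreted protease inhibitors, the imprinted Dlk1-Dio3 region, in which genes are expressed from the maternal or the paternal copy, and the immunoglobulin heavy chain locus of B cells. Genes next to each other can share a copy number or a chromatin state. Neither was measured here.

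In this text the log2 ratio is the lung-recovered minus the parental signal. A member is called raised where its ratio was above 0.27, the upper quartile of the 12800 measured genes on the other chromosomes, and not raised where it was at or below 0, their median. Raised and not raised genes lay side by side on the map. The promoter windows of 3 such neighbouring pairs and of Fos are shown because the members of a pair share a place on the chromosome and differ in ratio. Each window runs from 250 bases before to 50 bases after the start of the gene, 5′ to 3′ on the strand of the gene, from RefSeq on GRCm38.p6. Capitals mark matches to 5 motifs, searched on both strands, so that reverse complements are in capitals as well. The GC box was spelled GGGCGG, the CCAAT box by its own name, the TATA box as TATAAA, the E-box as CACGTG and the motif of the AP-1 factors as TGACTCA, and none of these motifs contains another. Odc1 lies at chr12:17544623-17544922, plus strand, and Hpcal1 at chr12:17690559-17690858, plus strand. Tnfaip2 lies at chr12:111442411-111442710, plus strand, and Eif5 at chr12:111537851-111538150, plus strand. Siva1 lies at chr12:112644578-112644877, plus strand, Akt1 at chr12:112674835-112675134, minus strand (the first of 2 windows listed for it), and Fos at chr12:85473640-85473939, plus strand.
Odc1: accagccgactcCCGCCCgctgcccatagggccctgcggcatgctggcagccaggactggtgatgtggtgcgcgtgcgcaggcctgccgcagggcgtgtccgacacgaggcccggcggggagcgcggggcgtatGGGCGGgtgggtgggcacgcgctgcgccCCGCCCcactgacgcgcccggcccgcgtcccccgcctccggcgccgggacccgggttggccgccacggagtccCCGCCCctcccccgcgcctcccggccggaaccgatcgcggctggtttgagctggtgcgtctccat
Hpcal1: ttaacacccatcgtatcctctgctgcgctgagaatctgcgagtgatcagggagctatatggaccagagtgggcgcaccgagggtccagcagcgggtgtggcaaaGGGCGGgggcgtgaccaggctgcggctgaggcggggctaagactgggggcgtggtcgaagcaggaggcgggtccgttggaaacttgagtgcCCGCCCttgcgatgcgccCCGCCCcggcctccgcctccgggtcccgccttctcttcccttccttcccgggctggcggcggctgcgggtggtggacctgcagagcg
Tnfaip2: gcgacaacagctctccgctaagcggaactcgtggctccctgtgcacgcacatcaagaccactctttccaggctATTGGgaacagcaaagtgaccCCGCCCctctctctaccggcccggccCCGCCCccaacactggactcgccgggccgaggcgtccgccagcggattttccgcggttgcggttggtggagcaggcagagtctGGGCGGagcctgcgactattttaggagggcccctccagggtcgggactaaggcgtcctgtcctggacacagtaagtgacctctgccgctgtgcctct
Eif5: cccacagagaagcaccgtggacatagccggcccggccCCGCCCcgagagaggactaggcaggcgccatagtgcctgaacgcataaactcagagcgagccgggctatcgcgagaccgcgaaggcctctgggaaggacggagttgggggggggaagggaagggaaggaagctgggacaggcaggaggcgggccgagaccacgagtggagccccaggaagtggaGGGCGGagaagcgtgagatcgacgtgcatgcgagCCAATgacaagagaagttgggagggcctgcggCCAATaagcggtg
Siva1: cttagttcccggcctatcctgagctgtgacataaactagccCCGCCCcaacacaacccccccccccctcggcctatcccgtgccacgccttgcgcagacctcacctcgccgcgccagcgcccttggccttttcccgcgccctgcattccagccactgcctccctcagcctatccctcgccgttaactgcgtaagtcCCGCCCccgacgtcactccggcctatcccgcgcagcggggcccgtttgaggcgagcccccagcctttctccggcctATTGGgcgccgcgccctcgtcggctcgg
Akt1: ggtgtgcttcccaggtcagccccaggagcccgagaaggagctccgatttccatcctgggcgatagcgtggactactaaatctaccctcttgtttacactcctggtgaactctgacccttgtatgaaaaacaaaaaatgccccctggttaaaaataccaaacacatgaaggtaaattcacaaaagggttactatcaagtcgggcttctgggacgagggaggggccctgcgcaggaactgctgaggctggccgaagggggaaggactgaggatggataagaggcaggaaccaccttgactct
Fos: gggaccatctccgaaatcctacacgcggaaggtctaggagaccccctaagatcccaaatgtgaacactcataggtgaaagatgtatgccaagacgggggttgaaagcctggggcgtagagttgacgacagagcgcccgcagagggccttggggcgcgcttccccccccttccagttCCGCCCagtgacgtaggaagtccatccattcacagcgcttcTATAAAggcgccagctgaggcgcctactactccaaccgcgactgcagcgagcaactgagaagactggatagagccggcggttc

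In the first pair, Odc1, which encodes the enzyme that starts polyamine synthesis, read 11.59 parental and 11.43 lung-recovered, with a ratio of -0.16. The next measured gene, Hpcal1, a neuronal calcium sensor relative, read 8.79 and 9.86, a ratio of 1.07. In the second pair, Tnfaip2, a gene induced by tumour necrosis factor, read 6.74 and 8.64, and its neighbour Eif5, whose product acts in choosing the start codon, read 10.51 and 10.09. The third pair joins Siva1, a pro-apoptotic gene, at 9.35 and 10.70, to the protein kinase gene Akt1, at 10.49 and 10.31. In each pair 1 member was raised and the other was lower in the lung-recovered line. Other probe sets kept the side of Akt1, Siva1, Odc1 and Eif5, but Hpcal1 had only 1 probe set and so no second reading. All 4 probe sets of Akt1 had ratios from -0.25 to -0.11, all 4 of Siva1 from 0.88 to 1.35, the 3 of Odc1 from -0.27 to -0.03 and the 5 of Eif5 from -2.02 to -0.20, while those of Tnfaip2 ran from -0.10 (a dim probe set at 5.24 and 5.14) to 3.12. Windows of both members of the first pair were rich in GC, at 78.0% for Odc1 with 4 GC boxes and 68.3% for Hpcal1 with 3, and those of the second pair were at 64.3% and 65.3%. In the third pair they differed, at 69.0% with 2 GC boxes for Siva1 and 52.3% with 0 for Akt1. The Fos window held 1 TATA box and 1 GC box, and the Akt1 window shown held none of the motifs.

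The chromosome as a whole stood above the others. Its 452 members had a median log2 ratio of 0.27, or 1.21-fold higher in the lung-recovered line, and the quartiles of their ratios were -0.07 and 0.57, against a median of 0 and quartiles of -0.23 and 0.27 on the other chromosomes. Medians of the other 19 chromosomes compared ran from -0.06 (chromosome 6) to 0.08 (chromosome 3). Raised members numbered 225, or 49.8%, where 25.8% of all measured genes were raised. At or below 0 were 146 members, or 32.3%, against 50.8% of all measured genes, and 81 lay between. Ratios above 0 were found for 306 members, 67.7% against 49.2%. Few members lay far from 0. At least 2-fold higher were 39 members (8.63%, against 4.42% of all measured genes), and at least 2-fold lower were 2 (0.442%, against 2.55%). The excess over other chromosomes lay in moderate ratios as well, since 21.7% of members had ratios above 0.25 and up to 0.50 (12.5% elsewhere), 13.1% above 0.50 and up to 0.75 (6.58%) and 7.96% above 0.75 and up to 1 (3.08%). These shares describe the contrast by which the chromosome was chosen.

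**Figure D1:**
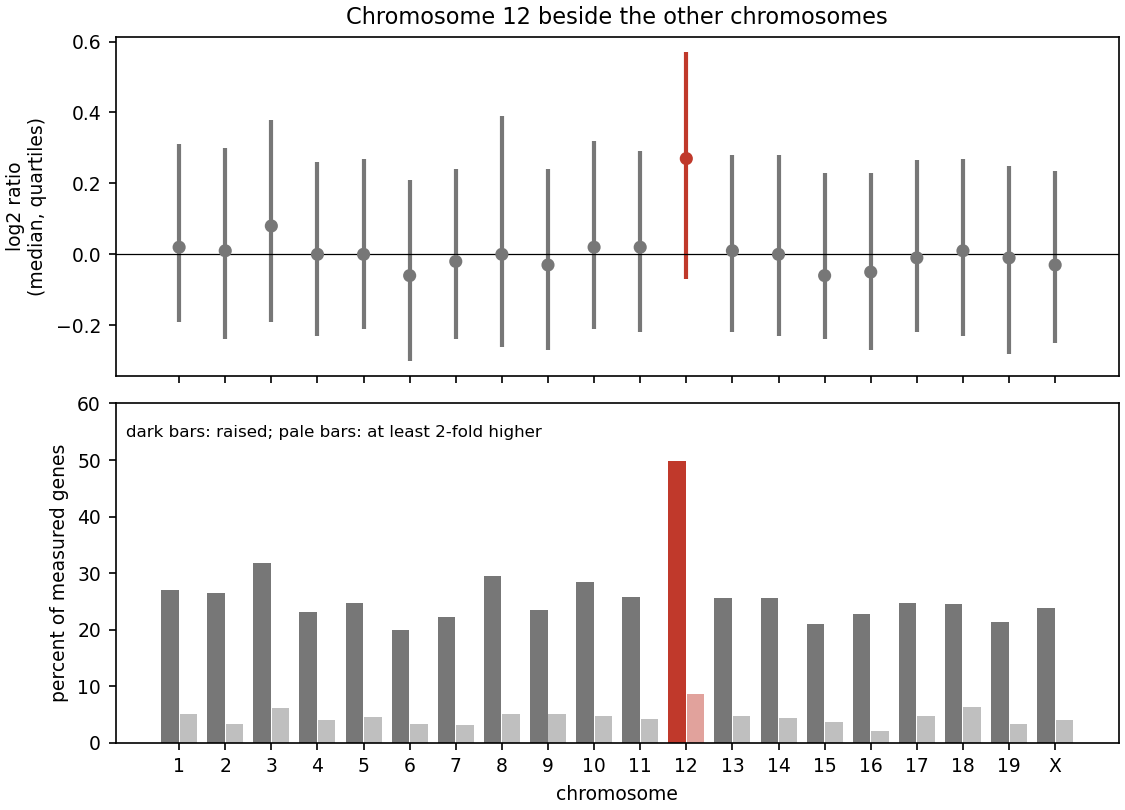
Upper panel: median (point) and quartiles (line) of the log2 ratio, lung-recovered minus parental, for the measured genes of each chromosome, from 1 array per line. Lower panel: percent of measured genes that were raised (dark) and at least 2-fold higher (pale); chromosome 12, in red, reaches 49.8% and 8.63%, and the next highest share raised is 31.8% on chromosome 3.

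Probe sets that the choice of members did not use gave a second reading on the same arrays, which is a technical repeat and not a replicate. Among 227 members with other probe sets above the floor, the median ratio of those other probe sets was 0.26, and 48.0% were above the limit for raised genes, against a median of -0.01 and 23.9% on the other chromosomes. Of 135 raised members with such probe sets, 86 were raised by them too, or 63.7% (57.6% elsewhere), and 32 were at or below 0. Of 53 not raised members, the others were at or below 0 for 35, or 66.0% (76.9% elsewhere), and raised for 6. The spread between probe sets of 1 gene had a median SD of 0.22 among these members (0.18 over all genes), close in size to the median ratio, so the side of a single gene near a limit is uncertain.

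Dim members carried little of the rise, and the shift was larger among brighter ones. The measured genes of the whole array were divided into 4 signal bins of about equal size by mean signal, at 5.92, 7.87 and 9.38 log2. In the dimmest signal bin the 113 members had a median ratio of -0.06, against -0.09 for genes of other chromosomes in that signal bin, a gap of 0.03, and 21.2% were raised against 12.2%. In the next signal bin the 128 members had a median of 0.29 against 0.04, with 50.8% raised against 31.2%. The gap was widest in the signal bin above that, where 113 members had a median of 0.45 against 0.05 and 69.9% were raised against 30.0%. Among the 98 members of the brightest signal bin the median was 0.33 against 0.05, and 58.2% were raised against 26.4%. Dim members thus made up 69 of the 146 not raised members and 24 of the 225 raised ones. Without the dimmest signal bin the median of the remaining 339 members was 0.37, with 22.7% not raised by the same limits. Since mean signal contains the lung-recovered value, signal bins were also set on the parental array alone, where the gaps from dim to bright were 0.05, 0.28, 0.38 and 0.29. How far background signal sets the small ratios of dim probe sets was not tested.

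**Figure D2:**
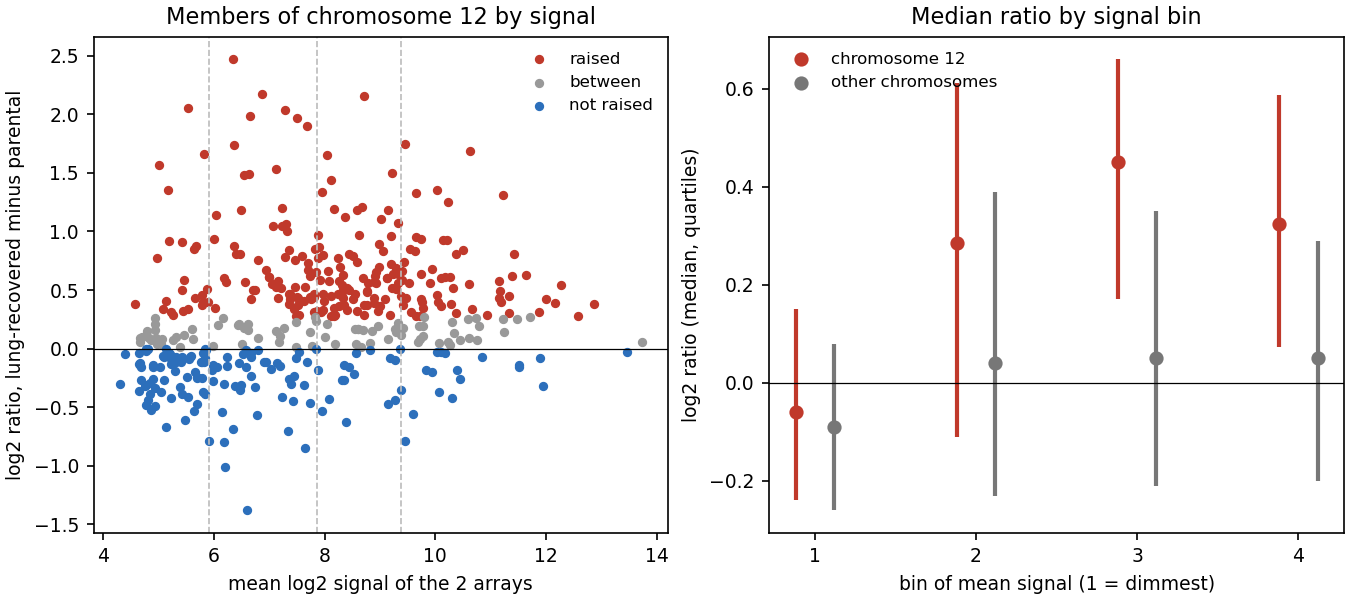
Left: log2 ratio of each of the 452 chromosome 12 members against its mean log2 signal, coloured by class, with dashed lines at the limits of the signal bins. Right: median (point) and quartiles (line) of the log2 ratio in each signal bin of mean signal, for chromosome 12 (red) and the other chromosomes (grey); the medians are -0.06 and -0.09 in the dimmest signal bin and 0.45 and 0.05 in signal bin 3.

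Transcript type went with level. Of the 452 members, 30 were not protein-coding genes by the gene table (noncoding RNA, pseudogenes and immunoglobulin segments). Of these 30, 4 were raised and 22 were not, with a median ratio of -0.22 and a median mean signal of 5.34 log2, while the 422 protein-coding members had a median of 0.29 and a median mean signal of 7.86. The 13.3% raised and 73.3% not raised were near the 11.0% and 69.2% of the 655 genes of such types elsewhere, whose median was -0.14.

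Position on the map showed no single stretch that carried the whole shift. The members in map order were divided into 8 blocks of 56 or 57 genes, from block 1, which starts at Rab10os, to block 8, which ends at Macc1. Median ratios were 0.31 in block 1 (to Iah1), 0.17 in block 2 (Adam17 to Stxbp6), 0.28 in block 3 (G2e3 to Dmac2l) and 0.17 in block 4 (Cdkl1 to Zfyve26). They were 0.32 in block 5 (Rad51b to Tmed10), 0.31 in block 6 (Fos to Slc24a4), 0.09 in block 7 (Rin3 to Zfp839) and 0.42 in block 8 (Cinp to Macc1). All 8 were above 0, but several came near it under other settings. Without a floor they were 0.04 in block 2, 0.08 in block 4 and 0.03 in block 7. By the dimmest probe set of each gene they were 0.08 in block 2, 0.06 in block 6 and 0.07 in block 7, and by the median over probe sets block 7 was at 0.06. The share raised ran from 33.9% in block 7 to 62.5% in block 5. Block 7 holds the serpin cluster and the imprinted region and had 20 dim members of 56, where the other blocks had 10 to 15. Without dim members its median was 0.27 over 36 genes, and those of the others ran from 0.28 to 0.45.

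A running median over 15 consecutive members was above 0 in 87.7% of 438 windows and above 0.27 in 55.0% of them. On the other chromosomes together, 3.09% of 12530 windows of the same width were above 0.27, and chromosome 8 came nearest, with 18.0%. The highest window of chromosome 12, 0.64, ran from Adssl1 to Mta1 near the distal end, and the lowest, -0.14, lay just before it, from Eif5 to Tmem179. Chromosome 8 had a higher single window, 0.76 from Vac14 to Mlkl, but a median ratio of 0 over its 709 genes. The class of a member went little with that of the member before it. After a raised member the next one was raised in 113 of 224 cases (50.4%), and after a not raised member in 70 of 146 (47.9%), while elsewhere these shares were 29.5% and 22.7%.

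**Figure D3:**
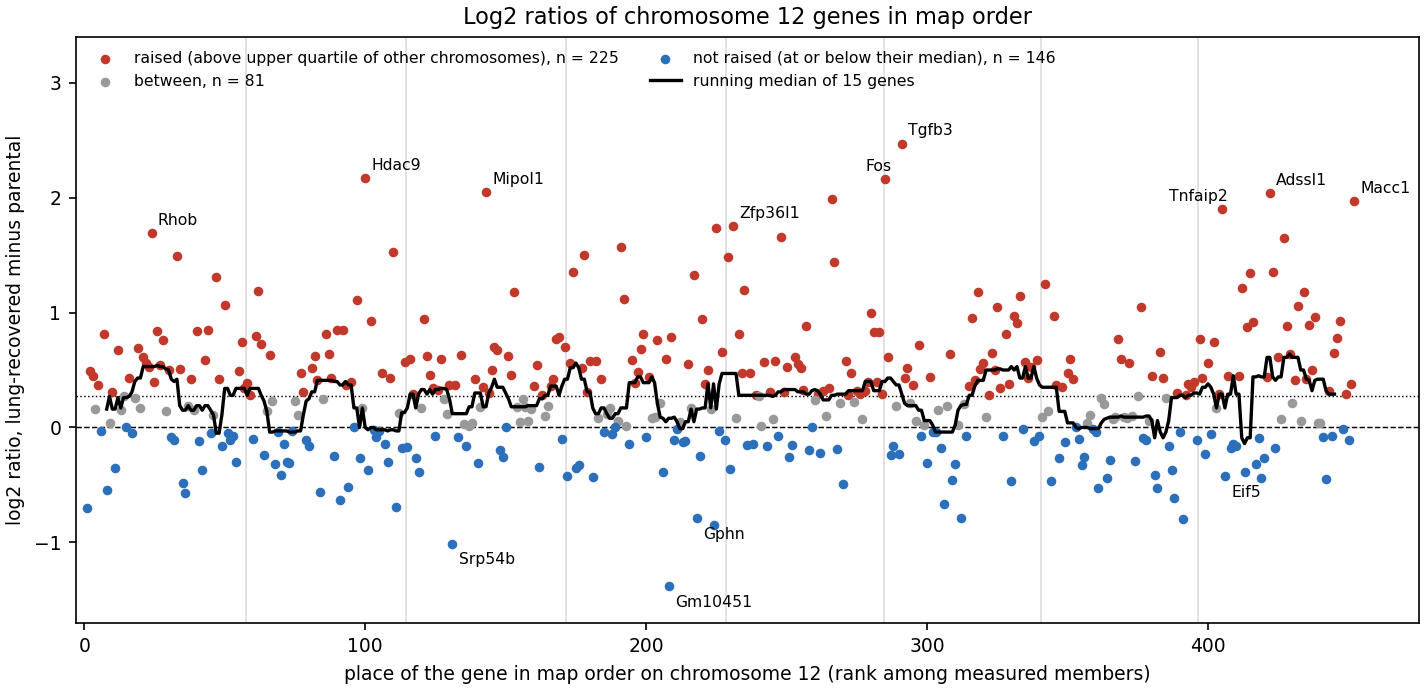
Log2 ratio, lung-recovered minus parental, of the 452 members in map order along chromosome 12 (rank, not distance), coloured by class, with the running median over 15 genes in black. The dashed and dotted lines mark the median (0) and the upper quartile (0.27) of the other chromosomes, and the running median lies above 0 in 87.7% of windows.

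The longest run of raised members held 9 genes, from Pgf to Jdp2, with ratios from 0.29 to 2.16. It contains the growth factor gene Pgf (5.28 and 5.60), the translation initiation gene Eif2b2 (9.85 and 10.25), the mismatch repair gene Mlh3 (6.83 and 7.83), Acyp1 (8.64 and 9.47), Zc2hc1c (5.60 and 6.00), the mitotic kinase gene Nek9 (9.22 and 10.05) and the cargo receptor gene Tmed10 (9.04 and 9.33). It ends with Fos (7.63 and 9.79) and Jdp2 (9.88 and 10.49), which encode partners and rivals within the AP-1 group of transcription factors. Other probe sets of Jdp2 (-0.08) and Zc2hc1c (-0.07) were not raised. A second run of 8 genes, from Apob to Wdr35, had ratios from 0.40 to 1.69 and included the small GTPase gene Rhob (9.79 and 11.48), the heparan sulfate proteoglycan gene Sdc1 (10.08 and 10.92) and the lysosomal membrane gene Laptm4a (12.01 and 12.55). In this run the other probe set of Apob gave -0.05 and those of Ldah ran from -0.32 to 0.73, while those of Hs1bp3, Pum2, Sdc1 and Wdr35 were raised. The longest run of not raised members held 7 genes, from Id2 to Rps7. Of these, 4 were in the dimmest signal bin, Rnf144a, Rsad2, Sox11 and Colec11. Id2, an inhibitor of helix-loop-helix factors, read 6.55 and 6.23, Allc read 6.34 and 6.04, and Rps7, a ribosomal protein gene that is among the brightest on the array, read 13.47 and 13.44.

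Among members above the floor on both arrays, those furthest up were scattered over 6 of the 8 blocks. Tgfb3, a ligand of the TGF-beta receptors, read 5.12 and 7.59, or 5.54-fold higher. Hdac9, a class IIa histone deacetylase gene, read 5.78 and 7.95 (4.50-fold), and Fos was 4.47-fold higher. Adssl1, an enzyme of the purine nucleotide cycle, read 6.26 and 8.30 (4.11-fold), and Rnf113a2, a RING finger gene, read 5.66 and 7.65. Macc1, known for its link to metastasis of colon cancer and to Met expression, closes the map at 6.51 and 8.48 (3.92-fold). Zfp36l1, whose product directs decay of AU-rich mRNA, read 8.58 and 10.33 (3.36-fold) and had a ratio of 1.91 by its other probe set. Pigh, of GPI anchor synthesis, read 5.50 and 7.24, and Rhob was 3.23-fold higher. Tnfaip2, given above, was 3.73-fold higher. Of these 10 genes, 8 had no other probe set above the floor. Among genes not above the parental floor, bounds were largest for Mipol1 (4.34 and 6.74, at least 4.14-fold), the homeobox gene Six4 (3.75 and 6.26, at least 2.97-fold) and Atl1, an endoplasmic reticulum shaping GTPase (4.30 and 6.04, at least 2.55-fold), each with other probe sets that were also higher. The lncRNA 5830428M24Rik (at least 1.71-fold) and the zinc finger gene Sp4 (at least 1.30-fold) followed. Raising the floor to the 60th percentile gave ratios of 1.41 for Tgfb3, 1.06 for Pigh, 0.56 for Mipol1 and 0.08 for Six4.

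Members furthest down were few and small in size. The lncRNA Gm10451 read 7.29 and 5.91 (2.60-fold lower, with a ratio of -0.78 by its other probe set), and Srp54b, a signal recognition particle gene with close copies whose signals cannot be told apart with certainty, read 6.70 and 5.69 (2.01-fold lower). By the brightest probe set they were the only members at least 2-fold lower. Plekhh1 read 8.07 and 7.22, and its other probe sets gave -0.90 and -1.35. Dio2, which activates thyroid hormone, read 6.31 and 5.52, while its other, dimmer probe sets gave larger drops, -1.03 and -1.59. Prkar2b, a regulatory subunit of protein kinase A, read 8.71 and 8.08, with -0.68 and -0.77 by its other probe sets. B930059L03Rik (6.58 and 5.78), the lncRNA Rab10os (7.69 and 6.99), Lrrn3 (6.69 and 6.00) and Nrp (5.48 and 4.81) had ratios from -0.80 to -0.67. Gphn, the gene of the synaptic scaffold gephyrin, read 9.84 and 9.05 by its brightest probe set, but its other probe sets gave ratios of 1.17 and 1.18, so its probe sets disagreed in direction. At or below the lung-recovered floor alone were 6 members, Tubb2a-ps2, 9430078K24Rik, 3200001D21Rik, Gm7008, Tmem179 and Asb2. On the deposited signals their bounds ran from at least 1.09-fold to at least 1.39-fold lower. Each array had its own floor, 4.69 log2 parental and 4.59 log2 lung-recovered, and these bounds include the offset between the floors. A gene at both floors, such as Krt20, was given -0.1, and Asb2 -0.13. With arrays scaled to equal medians, the ratios of Tubb2a-ps2 and Tmem179 were -0.38 and -0.17. In the other direction, Fkbp1b (4.15 and 4.64) was given -0.05 and counted as not raised.

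Some bright genes did not share the rise. Of the 60 brightest members, 32 were raised, 16 lay between and 12 were not raised, with a median ratio of 0.30. In the brightest signal bin, 18.4% of chromosome 12 members were not raised, against 45.9% on the other chromosomes. The 12 brightest show both kinds. Hsp90aa1, the stress-inducible cytosolic chaperone, read 12.67 and 13.05, the adaptor protein gene Ywhaq 12.43 and 12.71, Hif1a, the oxygen-regulated transcription factor, 11.97 and 12.36, and the small GTPase gene Arf6 11.79 and 12.21. Other probe sets of Hsp90aa1 ran from -0.21 to 0.59. Ywhaq, with a ratio of 0.28, was just above the limit, and its other probe sets had a median of 0.26. Proteasome genes Psma6 (11.33 and 11.96) and Psma3 (11.71 and 12.02, but -0.43 by a dim probe set) were raised as well, and Laptm4a had a ratio of 0.54. The splicing factor gene Srsf5 (11.58 and 11.85) sat at the limit. On the other side, the tetraspanin gene Tspan13 read 11.94 and 11.86, and Atp5mpl, a small subunit of mitochondrial ATP synthase, 12.11 and 11.79. The ribosomal protein gene Rps29, at 13.70 and 13.76, had a ratio of 0.06 and lay between the limits. Rps29 and Rps7 belong to gene families with close copies, whose signals cannot be told apart with certainty. Lowest among the 60 were Eif5 (-0.42), Snx13 (10.26 and 9.89), Atp5mpl (-0.32), the nuclear speckle gene Pnn (10.57 and 10.31), Akt1 (-0.18), Odc1 (-0.16), Ifrd1 (11.58 and 11.44) and Tspan13 (-0.08). Other probe sets of Snx13 (from -0.24 to 0.43) and Pnn (from -0.28 to 0.80) did not share 1 direction. Ratios as small as those of Rps7 and Tspan13 turn positive, at 0.07 and 0.02, when the arrays are scaled to equal medians, as do those of Ighg3, Clmn and Rnf144a. That of Serpina10 becomes 0 there, and that of Nrxn3 becomes -0.06 with quantile normalization.

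**Figure D4:**
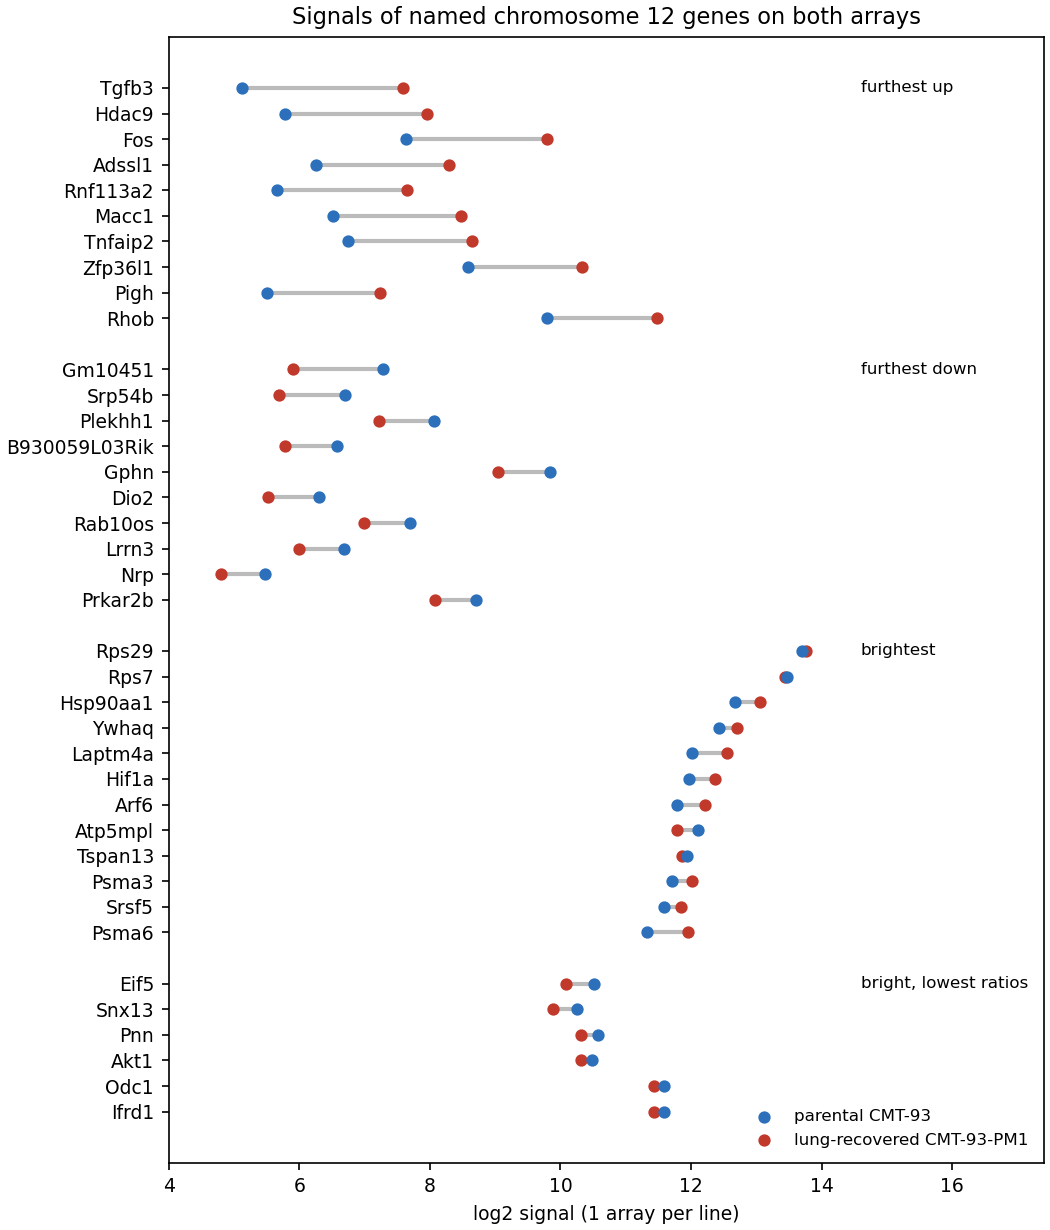
Log2 signals on the parental (blue) and lung-recovered (red) arrays, 1 array per line, for the 10 members furthest up, the 10 furthest down, the 12 brightest and the remaining bright members with the lowest ratios. Tgfb3 goes from 5.12 to 7.59, while Eif5 goes from 10.51 to 10.09.

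By role, the share raised was highest in the lists for protein synthesis and membrane traffic and was 0 in the serpin, imprinted and immunoglobulin clusters. The lists were written from general knowledge, and some share members. These counts read against 49.8% raised among all members and 25.8% among all measured genes. Dim members were 4 of 41 in the protein synthesis list and 1 of 35 in the membrane traffic list, against 113 of all 452. Outside the dimmest signal bin 59.3% of chromosome 12 members were raised. The shares of these lists, 65.9% and 65.7%, still include their dim members, so they are not matched to that value. How far signal level sets the order of the lists was not tested. In protein synthesis, proteasome and folding genes, 27 of 41 measured members were raised and 6 were not, with a median ratio of 0.37. Its brightest members were Rps29, Rps7, Hsp90aa1 and Psma3, given above. In membrane traffic genes 23 of 35 were raised and 8 were not (median 0.43), with the Golgi and endosome GTPase gene Rab10 at 10.92 and 11.41, Sypl at 10.98 and 11.38 and the proton pump gene Atp6v1d at 10.10 and 10.48. Signalling genes had 36 of 64 raised and 18 not (median 0.40), and their brightest were Arf6, Tspan13, Ifrd1 and Rab10, with values elsewhere in the text. Transcription factors and related nuclear genes had 22 of 39 raised and 7 not (median 0.30), among them the pioneer factor gene Foxa1 at 11.19 and 11.49, Yy1 at 11.11 and 11.56, and Strn3 at 10.79 and 11.08, whose other probe sets ran from -0.79 to 0.42.

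Genes of DNA replication, repair and division had 13 of 26 raised and 7 not, with a median of 0.28. The brightest of them lay between the limits, the ribonucleotide reductase gene Rrm2 at 11.17 and 11.31, the helicase gene Ddx1 at 10.70 and 10.89, Cep170b at 10.42 and 10.49 and the histidine methyltransferase gene Setd3 at 9.66 and 9.93. In the list of mitochondria and metabolism 29 of 57 were raised and 18 were not (median 0.28), with Odc1 not raised, the tricarboxylic acid cycle gene Dlst at 10.72 and 10.79, the cholesterol carrier gene Npc2 at 10.87 and 11.45, and Actn1, an actin crosslinker that the list holds although it is no metabolic gene, at 11.01 and 11.82.

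In the serpin cluster, 4 of 13 genes on the array were measured and 0 were raised, with Serpina11 brightest at 5.55 and 5.22. Serpina10 (5.29 and 5.19), Serpina3n (5.03 and 5.07) and Serpina12 (5.04 and 4.78) lay close to the floor. The imprinted region had 4 of 5 measured and 0 raised. Dlk1, expressed from the paternal copy, read 4.80 and 5.06, and its ratio of 0.26 was just under the limit of 0.27. The maternally expressed noncoding RNAs Meg3 and Rian read 6.14 and 5.98, and 5.24 and 4.87, while Dio3os read 5.78 and 5.17. The 5 other probe sets of Meg3 above the floor did not share 1 direction, with ratios from -0.27 to 0.45. Immunoglobulin heavy chain segments had 3 of 3 measured and 0 raised, with Ighm at 7.65 and 7.20, Igha at 6.49 and 6.53, and Ighg3 at 5.89 and 5.81. Brain and gland restricted genes had 1 of 13 measured members raised and 9 not raised, with a median of -0.07, and their brightest were Nrxn3 (7.76 and 7.78), Clmn (6.81 and 6.80), Esrrb (6.35 and 6.56) and Lrrn3. In the dimmest signal bin were 4 of the 4 measured serpin genes, 3 of 4 in the imprinted region, 1 of 3 immunoglobulin segments and 7 of 13 brain and gland genes.

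Promoter letters differed between raised and not raised members in the GC box more than in GC content. Windows were found for 397 of the 452 members. The median GC content was 62.3% over 201 raised and 59.0% over 129 not raised members, and the GC box was present in 65.7% and 49.6% of them, against 35.9% of all 27025 windows. The set of all windows also holds genes that were not measured on these arrays, so it is not a matched reference for the members. Without the dimmest signal bin, GC content was 62.7% and 63.0% and the share with a GC box 66.5% and 56.3%. The CCAAT box was found in 39.3% of raised and 37.2% of not raised members (37.9% of all windows), the TATA box in 5.97% and 10.9% (14.2%), the E-box in 7.96% and 12.4% (7.24%) and the AP-1 motif in 5.47% and 3.10% (5.17%). Without the dimmest signal bin, the TATA box was found in 6.59% of raised and 7.04% of not raised members and the E-box in 8.24% and 9.86%. In the 67 windows of members between the limits, the GC box was found in 62.7% and the TATA box in 1.49%. The E-box was found in 13.4% of those windows and the AP-1 motif in 0%. Shares of the TATA box, the E-box and the AP-1 motif thus did not follow the order of the ratios. The same split was not made for genes of the other chromosomes. These are matches of letters only. The median span of the gene was 37.0 kb in raised, 17.6 kb in between and 21.6 kb in not raised members, so it did not follow the order of the ratios.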

How the data were processed

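Per the labels' protocols, total RNA of CMT-93 and CMT-93-PM1 was made into biotin-labelled cRNA for 1 array each. The authors deposited log2 signals for 45037 probe sets; the base was taken from their range, and MAS5 is named in the submitters' processing notes with no role. The scaling of the arrays was not stated, and signals were used as deposited, since percentiles of the arrays differed by at most 0.11. Of 35877 listed probe sets, 34945 had 1 symbol, and 34741 of these matched the GRCm38.p6 gene table by Entrez identifier. That table served for names, chromosome, order, gene type and span. Signals below the floor of their own array were set to that floor before the ratio. The named genes were up to 10 furthest in each direction, up to 5 bounds in each direction, the 12 brightest, up to 8 lowest of the 60 brightest, up to 4 brightest of each list, the longest runs and the genes beside the floor; other names (the second run, the shown pairs) were chosen after their values were seen. The members and lists were chosen with earlier results of these data known. Alternatives covered scaling, floor, probe set choice and gene families. Scripts ran in Python 3.11.15 with pandas 2.3.3 and statsmodels 0.14.6, and were tested on simulated data.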

Additional observations from a re-analysis of the deposited data

How the results depend on the processing

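The direction of the chromosome-wide difference held under all alternatives run, with the gap between the medians of chromosome 12 and the others from 0.16 to 0.32 (0.27 as reported) and the count at least 2-fold higher from 33 to 49. The share raised ran from 42.4% to 52.8%. Scaling to equal medians adds 0.10 to each ratio, which gave a chromosome median of 0.37, 0.38 in block 3, and 0.03, 0.55 and 0.43 in signal bins 1, 3 and 4 of mean signal. It moves the limits of the classes equally, so no class can change. Quantile normalization gave 0.23 in block 5 and 0.03 in signal bin 1, and lowess 0.24 and 0.0404, and they kept 208 and 209 of the raised members and 122 and 123 of the not raised. A floor at the 20th percentile gave a median of 0.17 over 552 genes, with 44.7% raised and -0.01 in signal bin 2, then of dimmer genes. Without a floor the 622 genes had a median of 0.14, a gap of 0.16 and 42.4% raised, with 0.24 in block 5 and -0.06 in signal bin 2. A 60th percentile floor left 338 genes with a median of 0.37 and 25.1% not raised, with 0.27 in block 7 and 0.21 in signal bin 1. The dimmest probe set of each gene gave a median of 0.13, a gap of 0.17, 43.0% raised, 0.10 in block 5 and -0.07 in signal bin 2, with 43 members on opposite sides in the 2 readings, and the cause was not tested. The median over probe sets gave 0.26 in block 5. Without the dimmest signal bin (chosen after seeing the data, with limits set anew) the median was 0.37, 25.7% were not raised and block 7 was at 0.27. Members at least 2-fold lower numbered 2 as reported, 1 with equal medians, lowess, the 60th percentile floor or protein-coding genes only (also chosen after seeing the data), 3 with the 20th percentile floor, no floor or the median over probe sets, and 4 by the dimmest probe set. No paired analysis was possible because each line has 1 array. A single array per line limits the precision of all values.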
